A study of Mus musculus with 12 samples.

Results

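Serpins are a superfamily of proteins, most of which trap and inactivate a serine protease, and plasminogen activation is one of the proteolytic systems that they restrain. The transcripts of 9 mouse genes of these families were followed here: the plasminogen activators *Plau* and *Plat*, the urokinase receptor *Plaur*, the inhibitors *Serpine2* and *Serpinb2*, the intracellular inhibitors *Serpinb9b*, *Serpinb9* and *Serpinb6a*, and the C1 inhibitor *Serping1*. They were selected by symbol, with their thymol and DMSO values known, and all 9 were among the 10697 genes of the deposited table. Because the values that chose them came from the comparison of thymol with DMSO, their differences between these groups are given as a description without a test.

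The cells were primary mouse adult fibroblasts (MAFs), which were grown out of pieces of biopsies from wild-type (WT) C57BL6/j mice in high-glucose medium with fetal bovine serum. Of the 12 libraries, 6 came from cells given 100 µM thymol, a phenolic monoterpene of thyme, for 24 h, and 6 from cells given the same volume of its solvent DMSO. Libraries were made by QuantSeq, which reads the 3′ end of polyadenylated transcripts, so levels do not grow with transcript length and can be set side by side between genes. The study states that its mice were male. The biopsied tissue, the age of the mice and the number of mice or cultures behind each group are not given in the labels, so the spread between libraries may be technical. All values are log2 CPM, the reads of a gene relative to the scaled total of its library, and differences are thymol minus DMSO on that log2 scale.

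Urokinase, encoded by *Plau*, and tissue-type plasminogen activator, encoded by *Plat*, cut plasminogen into plasmin, the protease that dissolves fibrin and degrades or activates matrix components. The urokinase receptor holds urokinase at the cell surface, and serpins of clades E and B block the activators. Clade B serpins mostly lack a classical signal peptide and act inside cells, where several protect against proteases that leak from granules or lysosomes. Fibroblasts and macrophages both use this system during wound repair and migration.

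The recovered reads numbered between 5435985 and 9049796 per library, and no difference between the group means was found (exact two-sided permutation test, p = 0.396). Thymol replicate 5 held the 9049796 reads. The other thymol libraries held at most 6585162, against 6240828 to 8064382 in DMSO. The cultures held transcripts of more than fibroblasts. Of 16 fibroblast markers 13 were in the table, led by *Col1a1* and *Col1a2* with mean levels of 11.95 and 11.71 in DMSO, and *Lum*, *Fap* and *Pi16* were absent from it. The table also listed 19 of 20 macrophage markers, all but *Cd163*, and among them *Lyz2* reached 13.61 and *Laptm5* 9.40 in DMSO. Of the markers listed for dendritic cells, T and NK cells and mast cells, 0 were in the table, and of 7 each for neutrophil, endothelial, keratinocyte and muscle cells, 1, 2, 1 and 2 were. Among the fibroblast markers 2 passed the limma test described below, both lower, and among the macrophage markers 4 did, 3 of them higher. Of the muscle markers *Acta1*, named after its values were seen, also passed: it went from 7.11 ± 0.10 in DMSO to 6.66 ± 0.16 in thymol (SD, n = 6 each) without overlap, a difference of −0.45 ± 0.07 (SE, limma, adjusted p = 5.0e-05). The summed macrophage markers ran from 17011 to 18594 CPM in DMSO and from 17216 to 20597 CPM in thymol, and the summed fibroblast markers from 8931 to 10020 CPM and from 8007 to 8604 CPM. These sums mostly reflect their most abundant genes: in DMSO the mean was 12486 CPM for *Lyz2*, 3965 for *Col1a1* and 3355 for *Col1a2*. The mean log2 level of the fibroblast markers was 7.45 ± 0.057 in DMSO and 7.35 ± 0.027 in thymol (SD, n = 6 each, exact two-sided permutation test, p = 0.00216, the smallest that 924 relabellings allow, and 0.00433 adjusted over 2 lists). For the macrophage markers it was 7.93 ± 0.030 and 7.96 ± 0.033 (exact two-sided permutation test, p = 0.188, also 0.188 adjusted). Marker by marker, 8 fibroblast markers were lower and 5 higher in thymol, and 9 macrophage markers were lower and 10 higher. The means thus do not show a shift of every marker of a list. These marker lists were also written with earlier results of the same data known, so their p-values are no independent test. The part of these marker shifts in the differences below was not tested. In such bulk samples, fewer cells of a type and less RNA per cell cannot be told apart.

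Among the 9 genes, *Serpinb9b* stood apart: it was at 0.657 times its DMSO level after thymol, whereas its neighbor and closest relative among the 9, *Serpinb9*, was at 0.937 times. Both genes lie on the plus strand of chromosome 13 of build GRCm38, and *Serpinb9* (chr13:33003250-33017957) ends 9458 bases before *Serpinb9b* (chr13:33027416-33041884) begins. Their coding sequences were 86.0% identical over 1122 aligned bases. GENCODE gives *Serpinb9* 2 coding transcripts, which start at 33003250 and, 1291 bases further in, at 33004541. The RefSeq window of *Serpinb9* lies just before the latter, so it is inside the gene as GENCODE bounds it, and 3′ reads do not tell which start was used. The 250 bases before each RefSeq start, on GRCm38.p6 (chr13:33027164-33027413 for *Serpinb9b* and chr13:33004291-33004540 for *Serpinb9*, both plus strand), are printed to set the pair side by side, and capitals mark the 2 aligned runs of at least 10 identical bases.

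Serpinb9b: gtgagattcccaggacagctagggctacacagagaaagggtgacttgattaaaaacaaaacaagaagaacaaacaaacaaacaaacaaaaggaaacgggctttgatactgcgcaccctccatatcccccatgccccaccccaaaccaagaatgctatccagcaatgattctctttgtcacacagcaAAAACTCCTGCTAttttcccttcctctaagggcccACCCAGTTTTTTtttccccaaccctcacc
Serpinb9: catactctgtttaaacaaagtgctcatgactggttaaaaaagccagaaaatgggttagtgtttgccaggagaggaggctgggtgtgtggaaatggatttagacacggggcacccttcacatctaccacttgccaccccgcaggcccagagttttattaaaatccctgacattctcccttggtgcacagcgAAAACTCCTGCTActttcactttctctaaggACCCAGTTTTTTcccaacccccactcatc

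The windows were 62.9% identical over 232 aligned bases, and the longest shared run was 13 bases. On either strand, both windows lacked the AP-1 motif TGANTCA, held by 6.75% of 32851 RefSeq promoter windows of this length, the PU.1 motif GAGGAAGT, held by 2.44%, the TATAAA box, held by 12.4%, the C/EBP motif TTGCNNAA, held by 9.56%, and the NF-kB consensus, held by 7.25%. Windows were found for 6 of the 9 genes, the others being *Plau*, *Plat* and *Serping1*. The window of *Serpinb2* (chr1:107511173-107511422, plus strand, GRCm38.p6) is printed because this gene varied most between libraries, and its capitals mark, in order, a C/EBP, an AP-1 and a TATAAA match, which start 202, 94 and 29 bases before the gene's start.

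Serpinb2: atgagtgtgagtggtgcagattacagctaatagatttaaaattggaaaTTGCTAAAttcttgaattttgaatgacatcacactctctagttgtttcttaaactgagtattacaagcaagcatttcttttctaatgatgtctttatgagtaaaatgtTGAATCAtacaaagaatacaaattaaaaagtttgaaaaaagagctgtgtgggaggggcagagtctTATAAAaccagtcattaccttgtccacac

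The *Plaur* window also held an AP-1 and a C/EBP match, which start 69 and 59 bases before its RefSeq start. Those of *Serpine2* and *Serpinb6a* held none of the motifs. All these matches describe letters in a window and not binding. A second RefSeq start of *Serpinb2* gave an overlapping window with the same AP-1 and TATAAA letters.

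In all, 7 of the 9 genes were lower and 2 were higher in mean level after thymol, with 6 of the differences within 0.1 of 0. The median difference of the 9 was −0.04, against 0.0026 over all genes. In the fit over all genes with limma, 1 of the 9, *Serpinb9b*, was among the genes past an adjusted p of 0.05, where 2.22% of all genes were (168 lower and 70 higher). The groups did not overlap for 1 of the 9, again *Serpinb9b*, and for 1.68% of all genes. Since the 9 were selected on this comparison, nothing is read from these shares. For 7 of the 9 the difference was smaller than the pooled SD of the libraries.

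**Figure D1:**
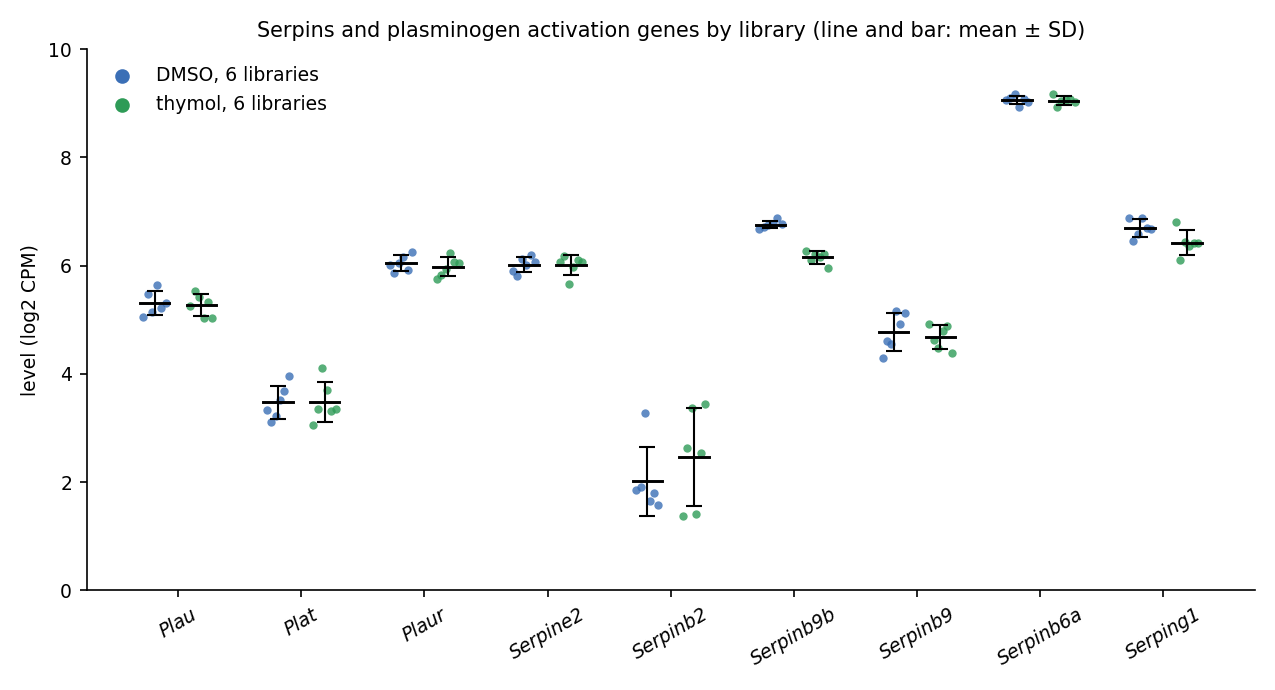
Level of each of the 9 genes in every library, in log2 CPM, with 1 point per library, DMSO and thymol side by side and the group mean drawn with its SD (n = 6 each). The 6 thymol points of Serpinb9b, from 5.95 to 6.26, all lie below its DMSO points, from 6.68 to 6.88, and the groups overlap for the other 8 genes.

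*Plau*, which encodes urokinase and lies at chr14:20836660-20843385, was near the middle of the 9 in level. In DMSO its log2 values ran from 5.05 through a median of 5.26 to 5.65, and in thymol from 5.03 through 5.29 to 5.53, so the groups lay over each other. The means were 5.31 ± 0.22 and 5.27 ± 0.20 (SD, n = 6 each), a difference of −0.04 ± 0.11 (SE). *Plat*, which encodes the tissue-type activator (chr8:22757727-22782844), was much scarcer, with 58 to 107 reads per DMSO library and 52 to 108 per thymol library. Its log2 values spanned 3.11 to 3.95 around a median of 3.43 in DMSO and 3.06 to 4.10 around 3.36 in thymol. The highest *Plat* value belonged to thymol replicate 3 and the lowest to thymol replicate 1, and the difference of the means was 0.01 ± 0.20 (SE). Within each library *Plau* exceeded *Plat*, by 1.83 ± 0.38 in DMSO and 1.78 ± 0.40 in thymol on the log2 scale (SD, n = 6 each), or 3.56-fold and 3.45-fold.

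*Plaur* encodes the receptor that anchors urokinase to the membrane by a lipid tail, and lies at chr7:24462484-24475968. Its log2 values ran from 5.86 to 6.26 in DMSO, with a median of 6.04, and from 5.75 to 6.23 in thymol, with a median of 6.00. Thymol replicates 1 and 2 were below every DMSO library, the other thymol libraries were inside the DMSO range, and the means differed by −0.07 ± 0.09 (SE). The receptor transcript was above that of its ligand *Plau* in all libraries, by 0.74 ± 0.25 in DMSO and 0.71 ± 0.34 in thymol on the log2 scale (SD, n = 6 each).

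*Serpine2* (chr1:79794197-79861180, minus strand) encodes protease nexin-1, a secreted inhibitor of thrombin, urokinase and plasmin. Its log2 values were 5.81 to 6.21 in DMSO and 5.66 to 6.18 in thymol, with medians of 6.04 and 6.07. Apart from thymol replicate 3, the lowest of the 12, the thymol values fell within the DMSO range, and the means differed by −0.01 ± 0.09 (SE). *Serpinb2* (chr1:107511423-107535478) encodes PAI-2, an inhibitor of urokinase that macrophages and other cells make in inflammation and keep largely inside the cell. It was the scarcest of the 9, at 19 to 76 reads per DMSO library and 14 to 64 per thymol library, and the only one with fewer than 6 libraries at 30 reads or more, having 5. The DMSO libraries 1 to 6 had log2 values of 1.86, 1.90, 3.29, 1.65, 1.80 and 1.58, and the thymol libraries 1.38, 2.64, 3.36, 1.42, 2.54 and 3.45. Thus 4 thymol libraries exceeded all DMSO libraries other than replicate 3, and thymol replicates 3 and 6 exceeded that one as well. Both groups reached nearly the same highest value. The difference of the means was 0.45 ± 0.34 (SE), which became 0.71 without DMSO replicate 3 and 0.25 without thymol replicate 6. The SDs of 0.64 and 0.90 exceeded the 0.29 and 0.27 that counting alone gives at these reads. Such an excess was not particular to this gene. Pooled over the groups, the SD was above that of counting for all 9 genes, from 1.56 times for *Serpinb9b* to 3.38 times for *Serping1*. For *Serpinb2* it was 2.80 times.

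*Serpinb9b* was the member whose groups separated. The DMSO libraries 1 to 6 had log2 values of 6.68, 6.71, 6.75, 6.76, 6.88 and 6.78, and the thymol libraries 6.26, 6.10, 6.22, 6.16, 6.22 and 5.95. Every thymol library was below every DMSO library, and the gap of 0.41 between the groups was wider than the range inside either group. The mean level was 108 ± 5.35 CPM in DMSO and 71.0 ± 5.44 CPM in thymol (SD, n = 6 each), resting on 722 to 861 and on 335 to 672 reads per library. On the log2 scale the difference was −0.61 ± 0.08 (SE), or 6.41 pooled SDs. Leaving out each library in turn gave differences between −0.63 and −0.57.

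*Serpinb9* encodes an intracellular inhibitor of granzyme B, the protease by which cytotoxic lymphocytes kill. Its log2 values ran from 4.29 through a median of 4.77 to 5.16 in DMSO and from 4.40 through 4.71 to 4.92 in thymol, and 0 of the 6 thymol libraries lay under the lowest DMSO library. The means of 4.78 ± 0.34 and 4.68 ± 0.22 (SD, n = 6 each) differed by −0.09 ± 0.14 (SE). *Serpinb9b* exceeded *Serpinb9* within each library, by 1.98 ± 0.30 in DMSO and 1.47 ± 0.16 in thymol on the log2 scale (SD, n = 6 each). That distance, from 1.61 to 2.38 in DMSO and from 1.32 to 1.74 in thymol, was shorter after thymol on average, and its ranges overlapped. None of the 50-base stretches in the last 500 bases of *Serpinb9b* or *Serpinb9* transcripts was shared with another gene, so reads of this length from those ends could be assigned to one or the other.

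**Figure D2:**
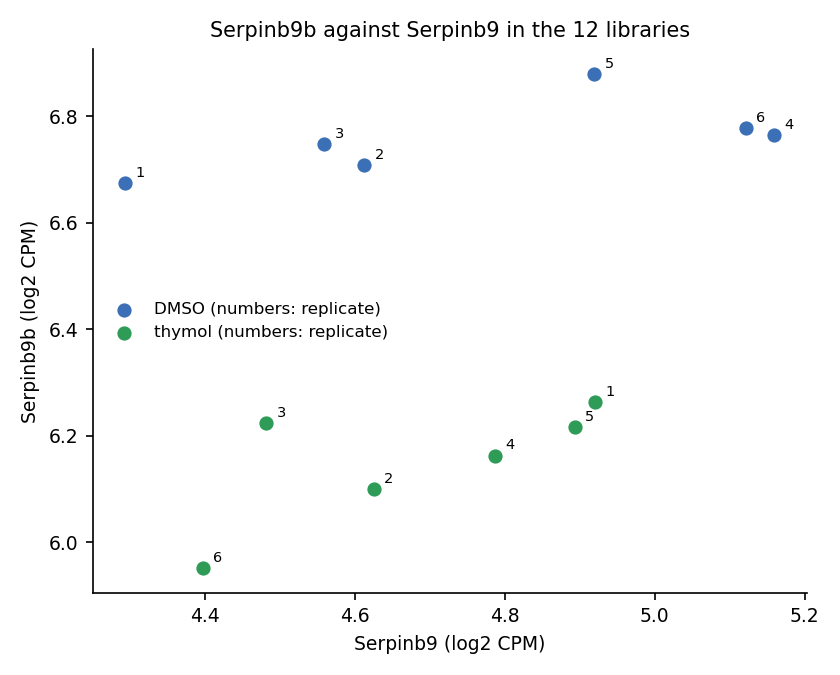
Serpinb9b against Serpinb9 in the same libraries, in log2 CPM on both axes, with 1 point per library. The thymol points lie lower on the Serpinb9b axis, at 5.95 to 6.26 against 6.68 to 6.88 in DMSO, and share the range of the DMSO points on the Serpinb9 axis.

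*Serpinb6a* (chr13:33917918-34002794, minus strand) encodes an intracellular inhibitor of proteases such as cathepsin G and was the most abundant of the 9, at 536 ± 29.4 CPM in DMSO and 531 ± 30.2 CPM in thymol (SD, n = 6 each). Its log2 values ran from 8.93 to 9.17 in DMSO and from 8.92 to 9.17 in thymol, with medians of 9.07 and 9.05. These ranges nearly coincided, with a difference of −0.01 ± 0.05 (SE). Of the 50-base stretches at its 3′ ends, 2.06% were shared with *Gm8436*, *Serpinb6b* and *Serpinb6c*, so reads of those stretches could not be assigned by sequence. The share of reads that fell there was not measured.

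*Serping1* (chr2:84765387-84775444, minus strand) encodes C1 inhibitor, the secreted serpin that blocks the complement proteases C1r and C1s, plasma kallikrein and factor XII. Its log2 values in DMSO libraries 1 to 6 were 6.88, 6.46, 6.58, 6.88, 6.69 and 6.68, and in thymol libraries 6.80, 6.11, 6.45, 6.37, 6.43 and 6.42. Of the thymol libraries 5 were below the lowest DMSO library, and replicate 1 was above 4 of the DMSO libraries. The means of 104 ± 11.9 and 86.7 ± 13.8 CPM (SD, n = 6 each) differed by −0.27 ± 0.09 (SE) on the log2 scale, or 1.36 pooled SDs, which left it at 0.831 times the DMSO level. Leaving out each library in turn gave −0.34 to −0.20.

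The levels in DMSO, given as a description since these values were also known when the genes were chosen, ran in the order *Serpinb6a*, *Serpinb9b*, *Serping1*, *Plaur*, *Serpine2*, *Plau*, *Serpinb9*, *Plat* and *Serpinb2*, from a mean of 9.06 to one of 2.01 in log2 CPM. Of the 8 pairs of neighbors in that order, 5 held in 6 of 6 libraries. *Serpinb9b* and *Serping1*, with a mean difference of 0.06 ± 0.18 (SD, n = 6), and *Plaur* and *Serpine2*, with 0.02 ± 0.18, were ordered in only 4 of 6 libraries and did not differ beyond their spread. *Plat* was above *Serpinb2* in 5 of 6 libraries, by 1.46 ± 0.84. In thymol *Serpinb9b* stood below *Serping1* in 6 of 6 libraries, by 0.28 ± 0.20, and *Serpine2* and *Plaur* changed places within their spread.

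Variation between the 12 libraries was compared after group means were removed. Over the 36 pairs of the 9 genes Pearson's r had a median of −0.014 and ran from −0.59, for *Serpinb2* with *Serpinb9*, to 0.60, for *Serpinb9b* with *Serpinb9*. The pair with the highest pooled r gave 0.64 within DMSO and 0.70 within thymol, on 6 libraries each. For 20 of the 36 pairs r had opposite signs in the groups: *Serpinb6a* with *Serping1* gave −0.71 in DMSO and 0.93 in thymol, *Serpine2* with *Serpinb9b* 0.84 and −0.33, and *Plat* with *Serpine2* 0.58 and −0.88. These pairs were picked from the 36 as examples. On 6 libraries per group, unrelated genes would have opposite signs about as often as like signs. A pooled r near 0 can thus join unlike values in the groups, and such values are no sign of a relation that differs between the groups. Pooled, *Plat* and *Plaur* gave 0.50, and *Plau* and *Serpinb6a* −0.51. All such values are a description and rest on 12 libraries, within each of which all genes share the same depth, scaling and cells. The gene outside the 9 with the profile most like each member, of 5388 genes with a mean log2 level of at least 5, was *Hjurp* for *Serpinb9b* (r = 0.91), *Prpf8* for *Serpinb9* (r = 0.87), *Emilin1* for *Serpinb6a* (r = 0.92) and *Pkm* for *Serping1* (r = 0.86). It was *Snx7* for *Plau* (r = 0.89), *Selenos* for *Plat* (r = 0.89), *Fbxl20* for *Plaur* (r = 0.89), *Fbxo28* for *Serpine2* (r = 0.84) and *Stxbp5* for *Serpinb2* (r = 0.91), each over the 12 libraries and each the highest of 5388 values.

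**Figure D3:**
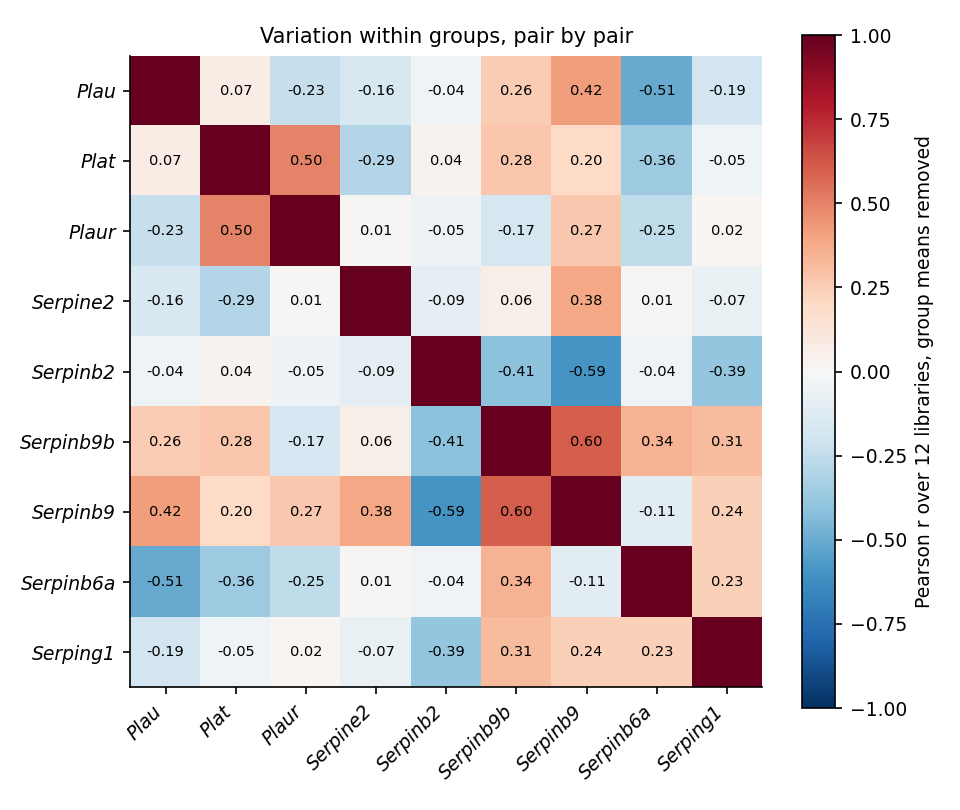
Pearson's r between each pair of the 9 genes over 12 libraries, computed from log2 CPM values after the mean of each group was removed. Values run from −0.59 (Serpinb2 with Serpinb9) to 0.60 (Serpinb9b with Serpinb9), and 17 of the 36 pairs lie within 0.2 of 0.

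The clade B serpins cluster on 2 chromosomes. On chromosome 13, 5 of the 15 protein-coding *Serpinb* genes were in the table, over a span of 1160.7 kb, and on chromosome 1, 2 of 11 were. The chromosome 13 genes in the table were *Serpinb1a*, *Serpinb6b*, *Serpinb9*, *Serpinb9b* and *Serpinb6a*. Their differences were −0.91 ± 0.22, −0.06 ± 0.09, −0.09 ± 0.14, −0.61 ± 0.08 and −0.01 ± 0.05 (log2, SE) in that order along the chromosome. The 2 larger differences were thus not in adjacent genes: *Serpinb6b* and *Serpinb9* lie between *Serpinb1a* and *Serpinb9b*. *Serpinb9c*, *Serpinb9d*, *Serpinb9e*, *Serpinb9f* and *Serpinb9g*, which lie on the far side of *Serpinb9b*, were not in the table.

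**Figure D4:**
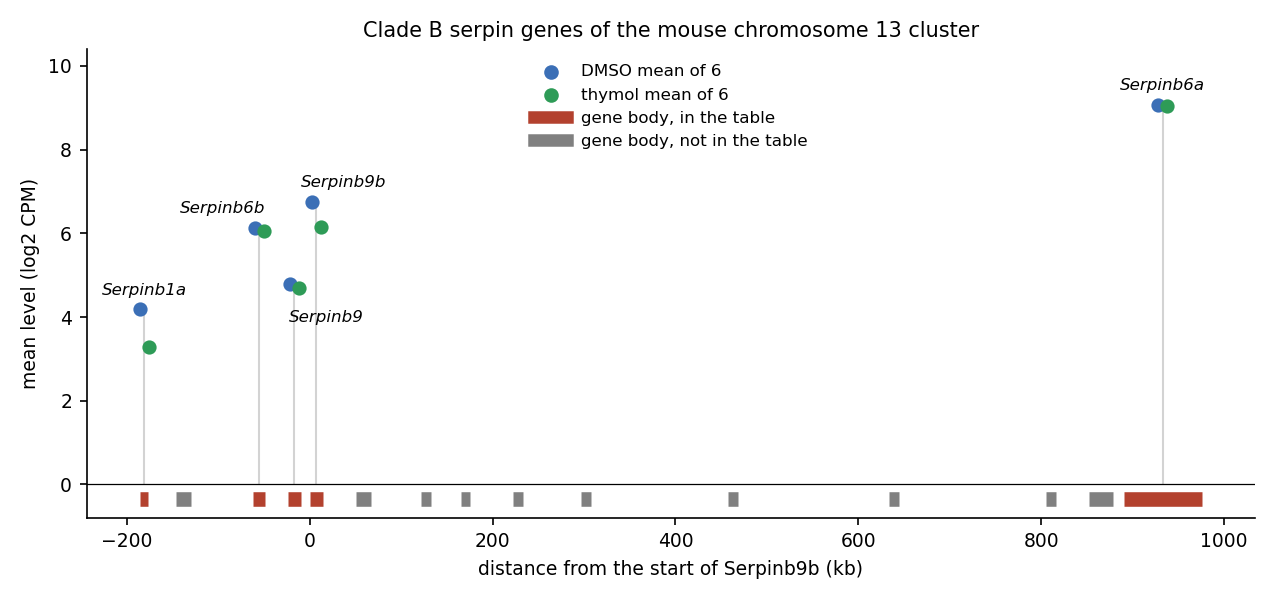
Mean level in log2 CPM of the 5 chromosome 13 Serpinb genes in the table, in DMSO and thymol (means of 6 libraries), against distance from the start of Serpinb9b in kb, with gene bodies drawn below and the 10 protein-coding Serpinb genes that are not in the table in gray. The thymol mean lies clearly under the DMSO mean for Serpinb1a (3.27 against 4.18) and Serpinb9b (6.15 against 6.76), and the 2 means nearly coincide for the other 3 genes.

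Beyond the 9, the table held 8 further serpin genes, of which 1 passed the limma test and was lower. This was *Serpinb1a*, which encodes an inhibitor of neutrophil elastase and cathepsin G. Its log2 values ran from 3.63 through 4.21 to 4.81 in DMSO and from 2.23 through 3.41 to 3.95 in thymol, so that 4 of 6 thymol libraries were below every DMSO library. *Serpinb1a* fell by 0.91 ± 0.22 (SE) on the log2 scale (limma, adjusted p = 0.0113), on 91 to 173 reads per DMSO library and 26 to 99 per thymol library. The adjusted p of limma was 0.0673 without DMSO replicate 5, 0.0688 without thymol replicate 2, where the difference was −0.70, and 0.0510 without thymol replicate 6. It was 0.228 without the mean-variance trend. With 10 CPM added before the logarithm the difference was −0.51. At its 3′ ends, 2.77% of 50-base stretches were shared with *Serpinb1b* and *Serpinb1c*. *Serpinh1*, which encodes the collagen chaperone HSP47, was at 9.28 in DMSO and 9.26 in thymol, and *Serpinf1*, which encodes the secreted factor PEDF, at 8.03 in DMSO with a difference of −0.03 ± 0.06 (SE). The median difference over the 8 genes was −0.03.

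Of 28 listed genes of the wider plasminogen system, comprising receptors for plasminogen and urokinase, partners of the urokinase receptor, clearance receptors and plasmin targets, 19 were in the table and 2 passed the test, both lower, with a median difference of −0.09. *Itgam* encodes the αM chain of the integrin Mac-1, which pairs with the urokinase receptor on myeloid cells, and is itself one of the macrophage markers. Its log2 values ran from 7.95 to 8.16 in DMSO and from 7.56 to 7.85 in thymol, without overlap, and it fell by 0.31 ± 0.06 (SE) on the log2 scale (limma, adjusted p = 0.000705). *Fpr1* encodes a receptor for formylated peptides that also responds to fragments of the urokinase receptor. Its log2 values ran from 2.46 to 3.69 in DMSO and from 0.48 to 2.79 in thymol, on 42 to 84 and 6 to 60 reads, and it fell by 1.60 ± 0.32 (SE) on the log2 scale (limma, adjusted p = 0.0011). With 10 CPM added before the logarithm the difference was −0.52. Beside these, the mean of the macrophage markers was 0.03 higher in thymol. Of the genes of highest level in this list, *Thbs1* and *Itgb1* did not pass: *Thbs1*, which encodes thrombospondin-1, differed by −0.13 ± 0.05 and *Itgb1*, which encodes the integrin β1 chain, by −0.11 ± 0.04 (log2, SE). The groups of *Itgb1* did not overlap. Quantile scaling moved *Itgb1* to −0.20.

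Of 20 listed genes of thrombin and tissue factor, 8 were in the table and 1 passed the test. This was *Thbd*, which encodes thrombomodulin, the receptor that turns thrombin towards protein C. Its log2 values ran from 6.55 to 6.78 in DMSO and from 6.01 to 6.52 in thymol, without overlap. *Thbd* fell by 0.34 ± 0.08 (SE) on the log2 scale (limma, adjusted p = 0.0101), and without thymol replicate 6 the adjusted p of limma was 0.0699. *F3*, which encodes tissue factor, differed by −0.28 ± 0.09, *F2r*, which encodes a thrombin receptor, by −0.08 ± 0.05, and *Gas6* by 0.10 ± 0.06 (log2, SE), and these 3 did not pass. Without thymol replicate 1 the differences of *F3* and *F2r* were −0.17 and −0.04, and without DMSO replicate 6 that of *Gas6* was 0.07. Over the 8 genes the median difference was −0.08.

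The targets of C1 inhibitor were followed in 10 listed genes of the C1 complex and the contact system, of which 7 were in the table. By limma 0 passed, 0 were under an unadjusted p of 0.05, and 0 passed with voom on the recovered reads. *C1qa*, *C1qb* and *C1qc*, which encode the chains of C1q, were at 10.48, 10.06 and 9.74 in DMSO and differed by −0.03 ± 0.04, 0.05 ± 0.05 and 0.01 ± 0.05 (log2, SE). The targets of the granule-protease inhibitors could not be followed, as 0 of 13 listed granzyme and neutrophil protease genes were in the table. Of 22 other listed serine proteases, 7 were in the table and 1 passed. *Prss23*, which encodes a secreted serine protease, fell by 0.28 ± 0.06 (SE) on the log2 scale from 9.20 ± 0.12 to 8.91 ± 0.19 (SD, n = 6 each; limma, adjusted p = 0.0042), and its groups overlapped. *Furin*, *Htra2* and *Htra1* differed by 0.06 ± 0.07, −0.01 ± 0.10 and −0.03 ± 0.10 (log2, SE) and did not pass. These lists were written with earlier results of the same data known, and 2.22% of all genes passed the same test.

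**Figure D5:**
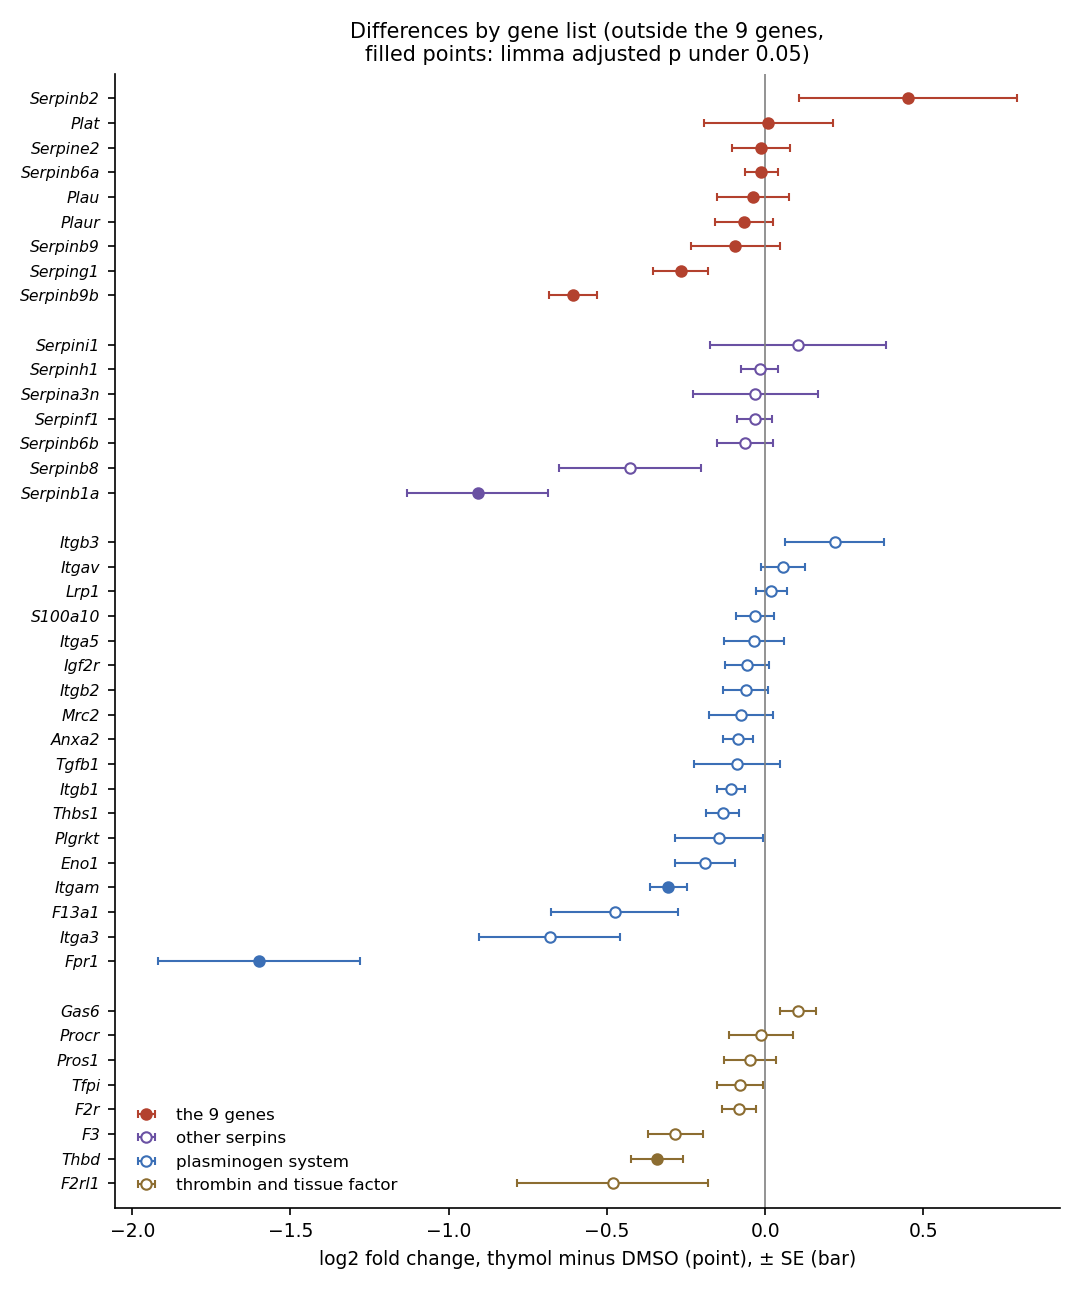
Difference in mean log2 CPM (thymol minus DMSO) with its SE for the 9 genes, the other serpins, the plasminogen system and the thrombin and tissue factor list, with 1 point per gene shown. Outside the 9, filled points passed limma at an adjusted p under 0.05. Fpr1 at −1.60 and Serpinb1a at −0.91 lie furthest below 0, and Serpinb9b at −0.61 is the lowest of the 9.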

How the data were processed

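Per the labels and the methods of the study, the authors aligned the reads with STAR 2.5.3 to GRCm38, counted reads per gene with HTSeq 0.6.1, removed genes with few reads (a minimum of 30 reads in 6 samples) and scaled libraries by TMM, a trimmed mean of log ratios. The deposited values are log2 CPM with a prior count, made by the authors. The table held 10697 genes in 12 columns, each named for 1 library. Reads were recovered from the steps of the values: below 200 reads, 100% came out whole within 0.02, and 98% of genes met the minimum. A prior of 1.96 reads in an average library pulls differences of scarce genes towards 0. Reads are PCR products, so counting errors cover counting only.

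All genes were fitted with limma 3.58.1 in R 4.3.3 (lmFit, eBayes with a mean-variance trend, no covariate), two-sided, with Benjamini-Hochberg adjustment over 10697 genes and a threshold of 0.05. The fit was tested on simulated data. Read totals and marker means were compared by exact permutation tests. The paired test planned for the order of levels is not reported, as its pairs were formed by the same means. The 9 genes and all lists were chosen with earlier results of these data known. Named were the 9 genes, every gene of a list past the threshold and its 3 genes of highest level, the most alike gene for each of the 9, and the 2 highest fibroblast and macrophage markers. *Serpinb6b*, outside this rule, was named after its values were seen, and 1 gene within it is not reported here. Gene coordinates came from GENCODE vM21 (GRCm38). Alternatives were limma without the trend or with a robust prior, voom on recovered reads, 1 or 10 CPM added, quantile or median scaling, a minimum mean of 5, a replicate block, odd or even replicate number, and leaving out each library.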

Additional observations from a re-analysis of the deposited data

Results flagged for a closer look

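In 60 groups of 6 libraries, the highest or lowest library was compared with its nearest neighbor as a share of the range of the group. Of these, 4 passed the critical value, and chance passes about 1 in 20 groups, or about 3 of 60. The share was 0.81 for *Serpinb2* in DMSO, where replicate 3 was at 3.29 and the next library at 1.90 (log2 CPM). For *C1qa* in thymol it was 0.666, with replicate 6 at 10.56 and the next at 10.46. For *C1qb* in DMSO it was 0.625, with replicate 1 at 10.24 and the next at 10.07. For recovered reads in thymol it was 0.682, with replicate 5 at 9049796 and the next at 6585162.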

How the results depend on the processing

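All 195 values of the 9 genes under other settings moved by less than the pooled SD of the libraries. Limma without the trend or with a robust prior and a minimum mean of 5 cannot change these differences. In this balanced design neither can the replicate block or odd or even replicate number. The values under these settings were thus fixed in advance and say nothing of stability. Leaving out 1 of the 6 libraries of a group can change a difference, but never by as much as the pooled SD. The count of 195 is thus no sign of stability. Under every setting that could change them, *Serpinb9b*, *Serping1*, *Plaur* and *Serpinb9* were lower and *Serpinb2* higher, whereas *Plau*, *Plat*, *Serpine2* and *Serpinb6a* changed sign under some. *Serpinb9b* differed by −0.63 to −0.55, and *Serpinb2* by 0.18, with 10 CPM added, to 0.71. Without the mean-variance trend 57 of all genes passed in place of 238, and the count was 0 for the other serpins, the plasminogen system, thrombin and tissue factor, and the other serine proteases. There, the adjusted p of limma was 0.0662 for *Itgam*, 0.0538 for *Fpr1*, 0.158 for *Thbd* and 0.266 for *Prss23*. With a minimum mean of 5, 0 other serpins and 1 plasminogen gene passed. Quantile scaling gave 4 plasminogen genes. For thrombin and tissue factor, 2 genes passed with 10 CPM added and with odd or even replicate number as a term. Leaving out each library gave 172 to 270 of all genes, 0 to 1 other serpins, 2 to 3 plasminogen genes and 0 to 2 thrombin genes. The replicate block gave 332 of all genes and 2 thrombin genes. The cause was not tested. Odd or even replicate number as a term gave 277 of all genes. Same-numbered libraries deviated together at r over 0.1 in 2 of 6 numbers, and 2 of 6 matched their own number best. The mean r was 0.069 for same numbers and −0.014 for other numbers. The main fit did not pair the libraries by number, and whether they were paired is not known. The count of granzyme and neutrophil protease genes could not be recomputed, as none was in the table. Depth limits *Serpinb2* most.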
